A study of Mus musculus with 6 samples.

Results

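The 52 genes described here lie along mouse chromosome 14 and were chosen because the median mRNA level of that autosome was slightly higher in HN mESCs, which lack huntingtin (Htt), than in wild type R1 mESCs. They are a hand-picked set out of the 23412 genes of the deposited table, and all 52 were found in it by symbol. The annotation (GENCODE M21, build GRCm38) places all of them on chromosome 14, from the start of Vcl at chr14:20929398 to the end of Tm9sf2 at chr14:122159604. The question was whether the shift was even along the chromosome or confined to a segment. Since the choice used the difference between HN and R1, every value of that difference below is a description. Members called by limma, edgeR and DESeq2 are counted, but such counts are not evidence for the shift.

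R1 is the parental wild type line of mouse embryonic stem cells (mESCs) of strain 129Sv. HN is a Htt-/- line in which the promoter and exon 1 of both Htt copies are deleted, so that a single line stands for each genotype. Both were grown undifferentiated without feeder cells, with leukemia inhibitory factor and small-molecule inhibitors. RNA-seq libraries were made from 3 batches of each line, and R1 and HN libraries with the same replicate number share a collection date, which gives 3 same-date pairs. Unless stated otherwise, a difference is the HN minus R1 difference of log2(normalized count + 1), on which a value of 0.27 equals a ratio of 1.21.

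Chromosome 14 is an autosome, present in a diploid cell as a maternal and a paternal copy. Its genes are not a pathway. The members carry out tasks that every dividing cell needs, such as import into and export from the nucleus (importins and exportins), repair and packaging of DNA, transcription by RNA polymerases II and III, control of division, and folding and traffic of proteins. DNA was not measured in these libraries, so the values concern mRNA levels only.

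Between 1640391 and 3866717 reads per library fell on genes, and the members had a mean of 13.7 to 1617 reads per library (median 252). The lowest single value among the members was 8 reads. Htt, the targeted gene, reached 230, 257 and 199 normalized counts in R1, against 18.3, 58.1 and 54.2 in HN, so it was low but above 0 in the line labelled null (triplets of values are always in the order of replicates 1, 2 and 3). The 6 stem cell markers Pou5f1, Nanog, Sox2, Klf4, Zfp42 and Esrrb summed to between 8107 and 11543 in R1 and between 8805 and 11540 in HN libraries. Within these sums single markers moved in opposite directions. Zfp42 was lower in HN (-0.79), while Klf4 (0.52) and Nanog (0.28) were higher, each without overlap between the lines. The 10 markers of other cells that a culture could hold (endoderm, primitive streak, neural, trophoblast and fibroblast genes) summed to between 117 and 314 in R1 and between 156 and 297 in HN, and 0 of the 10 were at 0 in a library. Of these 10, only Thy1 did not overlap between the lines, and it was lower in HN (-1.54). Markers that overlapped also moved in opposite directions. T (1.21), Gata4 (0.87) and Gata6 (0.18) were higher in HN in all 3 same-date pairs, while Sox17 (-0.74) and Pax6 (-0.44) were lower in all 3. The SE of these differences ran from 0.43 for T to 0.81 for Pax6. These bulk values cannot tell fewer cells of a type from less RNA per cell.

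Members of chromosome 14 were higher in HN mESCs by a small amount that was shared by nearly all of them. The median difference of the 52 members was 0.27, a ratio of 1.21, with an interquartile range of 0.28 and a range from -0.41 (Gch1) to 1.61 (Tgds). In the same-date pairs 1, 2 and 3 the median was 0.22, 0.31 and 0.34 (SD 0.06, n = 3 pairs). Of the 52 members, 50 had a difference above 0, against 48.5% of the 14276 genes tested, and 34 lay between 0.1 and 0.5. The members below 0 were Gch1 and Parp2 (-0.06). The median over all tested genes was -0.01.

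In 35 members HN was higher in all 3 same-date pairs, which was so for 20.3% of all tested genes, and in 16 it was higher in 2 of the 3. Only Gch1 was higher in a single pair. The R1 and HN libraries of 16 members did not overlap, with HN higher in all 16 (5.23% of all tested genes were apart with HN higher, and 5.54% with HN lower). Without a block for date, limma called 0 of the 52 members at an adjusted p under 0.05 with a log2 difference above 1 (0.119% of all genes were called higher and 0.126% lower), and edgeR called 0 (0.112% of all genes higher). At an unadjusted p under 0.05, limma counted 8 members higher and 0 lower (3.15% of all genes were higher and 2.75% lower). When the collection date was added as a replicate block, limma called Tgds and no other member (0.911% of all genes higher, 1.04% lower). At an adjusted p under 0.05 of any size, that limma fit counted 18 members higher (5.46% of all genes) and 0 lower (4.02%). Tgds was also the single member called by edgeR with the block (0.925% of all genes higher, 1.06% lower), by DESeq2 (0.329% higher, 0.231% lower) and by DESeq2 with the block (0.504% higher, 0.385% lower). These counts describe the members' size and spread, since the members were chosen on this contrast.

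The member median depended on which single libraries were compared. It was 0.17 without R1 replicate 3, 0.37 without R1 replicate 2, 0.14 without HN replicate 2 and 0.39 without HN replicate 3. Each of these comparisons leaves 1 date in a single line. When both libraries of a date were left out together, the median was 0.32, 0.30 and 0.21 without replicates 1, 2 and 3, and 48 to 50 members stayed above 0.

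Each library was also scored as the median deviation of a gene set from its mean over the 6 libraries, minus the same median over genes of the other autosomes in the members' range of expression. This reference was chosen after the data were seen. On that scale the members scored -0.15, -0.04 and -0.19 in R1, against 0.10, 0.23 and 0.11 in HN. The lines did not overlap, and HN exceeded R1 by 0.27 (R1 -0.13 ± 0.08, HN 0.14 ± 0.07, SD, n = 3). The 429 other tested chromosome 14 genes, scored against all other autosomal genes, were at -0.16, -0.13 and -0.12 in R1 and at 0.14, 0.08 and 0.14 in HN. Without subtraction of the other autosomes, the member scores of the lines overlapped (-0.10, 0.04 and -0.32 in R1, against 0.09, 0.32 and 0.02 in HN).

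**Figure D1:**
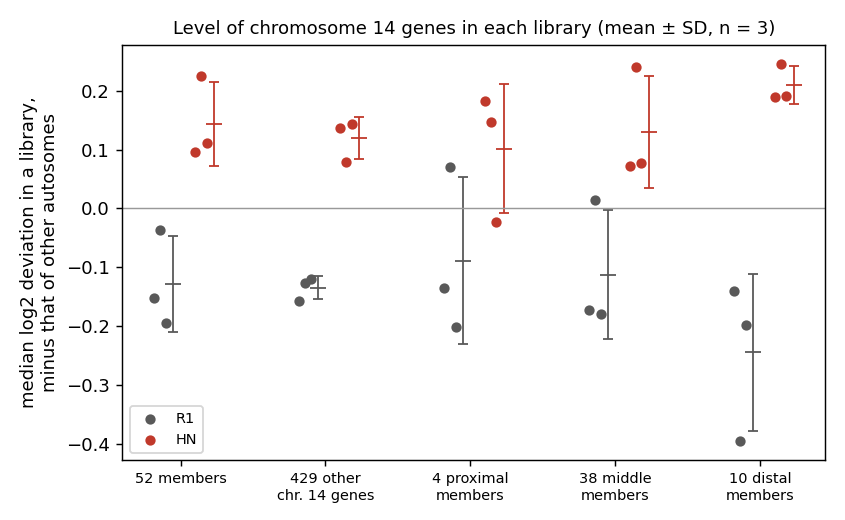
Score of chromosome 14 gene sets in each library. The y axis gives the median log2 deviation of the set from its mean over the libraries, minus that of the other autosomes; points are replicates 1, 2 and 3 from left to right, grey for R1 and red for HN, with mean ± SD (n = 3). HN points lie above all R1 points for the 52 members, the 429 other chromosome 14 genes and the middle and distal members, and overlap R1 for the 4 proximal members.

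The shift was also seen in chromosome 14 genes outside the set. The chromosome was itself chosen for its higher median in HN. Its other genes and its place among the autosomes therefore describe that choice and are no separate support. The 429 tested chromosome 14 genes outside the set had a median difference of 0.24 (0.24, 0.23 and 0.23 in the 3 pairs), and 76.5% of them were above 0. Over all 481 tested genes of the chromosome the median was 0.25, with 78.6% above 0 and 47.8% higher in all 3 pairs. Among the other 17 autosomes apart from chromosome 8, the medians lay between -0.08 and 0.03 and single-pair medians between -0.22 and 0.08. Chromosome 8 had a median of -0.22 (-0.26, -0.28 and -0.13 in the pairs). Chromosome 14 was the single autosome of 19 on which the median scores of the R1 and HN libraries did not overlap. On the other 18 autosomes, at most 25.6% of tested genes were higher in all 3 pairs. The other autosomal genes within the members' range of expression had a median of -0.01. Their interquartile range was 0.38, against 0.28 for the members, but this order was not kept within classes of expression. At mean normalized counts of 50 to 200 the interquartile range was 0.42 for the members and 0.36 for the other autosomes. At 200 to 1000 it was 0.23 and 0.29.

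**Figure D2:**
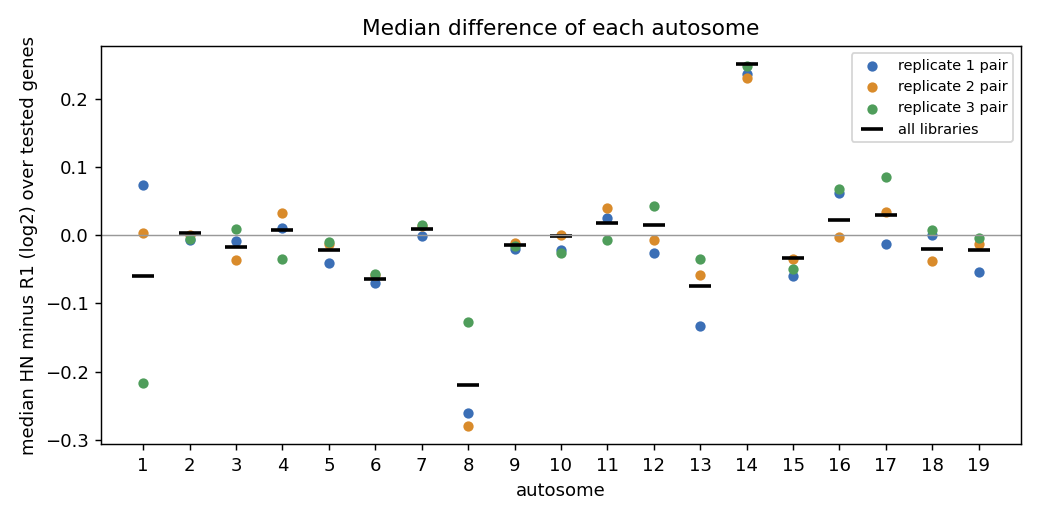
Median HN minus R1 difference (log2, y axis) over the tested genes of each autosome (x axis), in each same-date pair (coloured points) and over all libraries (black bars). Chromosome 14 lies at 0.25 with its 3 pairs between 0.23 and 0.25, and chromosome 8 at -0.22.

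Along the chromosome, gaps of more than 10 Mb between neighbouring members split the set into 3 segments. The proximal segment holds 4 genes (Vcl, Vdac2, Dlg5 and Polr3a), the middle segment 38 genes from Gch1 to Gtf2f2, and the distal segment 10 genes from Tgds to Tm9sf2. Their median differences were 0.25, 0.26 and 0.53. In pairs 1, 2 and 3 the proximal median was 0.24, 0.22 and 0.36, the middle median 0.18, 0.23 and 0.33, and the distal median 0.31, 0.56 and 0.36. The distal median was above the others in pairs 1 and 2 and level with the proximal one in pair 3. The highest distal members were 4 genes that follow each other in the order of the members (Tgds, Gpr180, Dzip1 and Dnajc3). They need not be neighbours on the chromosome, since Gpr180 ends at chr14:118163261 and Dzip1 starts at chr14:118875520. Without these 4 members, which were singled out after their values were seen, the distal median could only be lower. The remaining 6 distal members had a median of 0.26, and the other 48 members of the whole set also had 0.26.

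The segment medians shared the dependence on single libraries. Leaving out R1 replicate 3 moved the proximal median to 0.05 and the middle median to 0.15, and leaving out HN replicate 2 moved them to 0.08 and 0.13. Without HN replicate 3 the proximal median was 0.39. Scored per library against other autosomes, middle members did not overlap between the lines (at most 0.01 in R1, at least 0.07 in HN), nor did distal members (at most -0.14 in R1, at least 0.19 in HN). The 4 proximal members overlapped, with 0.07 in R1 replicate 2 and -0.02 in HN replicate 3.

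**Figure D3:**
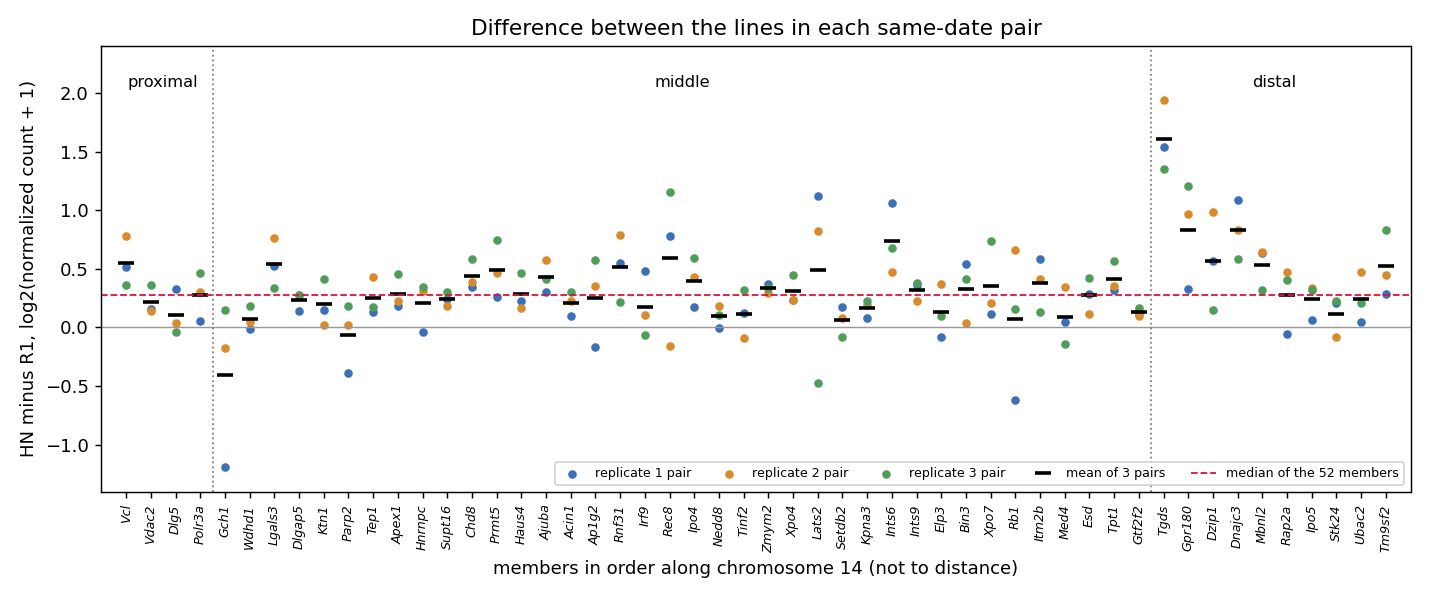
HN minus R1 difference (log2, y axis) of each of the 52 members in the 3 same-date pairs (coloured points) and their mean (black bars), in order along the chromosome (x axis, not to distance). Bars of 50 members lie above 0, most of them near the dashed median of 0.27, and those of Tgds (1.61), Gpr180 and Dnajc3 (both 0.83) stand highest.

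All tested genes of the chromosome, members or not, were then taken in 13 windows of 10 Mb numbered from the centromeric end. The 8 windows with at least 20 genes had medians between 0.01 and 0.33, and in 7 of them the median was above 0 in all 3 pairs. The exception was the second window (10 to 20 Mb), which holds 24 tested genes and 0 members. Its median was 0.01, with 13 of 24 genes above 0 and pair medians of 0.19, -0.11 and 0.06. The median level of its genes was 33.0 normalized counts, against 42.9 in window 12. All chromosome 14 genes with mean counts of 5 to 50 had a median difference of 0.18. The 10 genes of window 2 with a mean normalized count of at least 50 had a median of 0.17, with 7 of 10 above 0. With that filter it was still the lowest window, next to 0.18 in window 1. Whether the level of expression accounts for the value of window 2 was not tested.

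The other 5 windows held 48 genes in all and are less certain. Window 12 (110 to 120 Mb), where the 4 highest distal members lie, had the highest median, 0.75 over 12 genes, and 0.61 over the 10 genes other than Tgds and Uggt2. Pair medians in that window were 1.32, 0.73 and 0.38. The 6 windows without any member held 117 tested genes with a median of 0.24, of which 76.1% were above 0, and their pair medians were 0.32, 0.23 and 0.25. The shift was not confined to 1 segment, since 7 of the 8 windows with at least 20 genes had medians above 0 in all 3 pairs. It was almost absent from window 2 (0.01, and -0.11 in pair 2). The highest median, in window 12, rested on 12 genes.

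**Figure D4:**
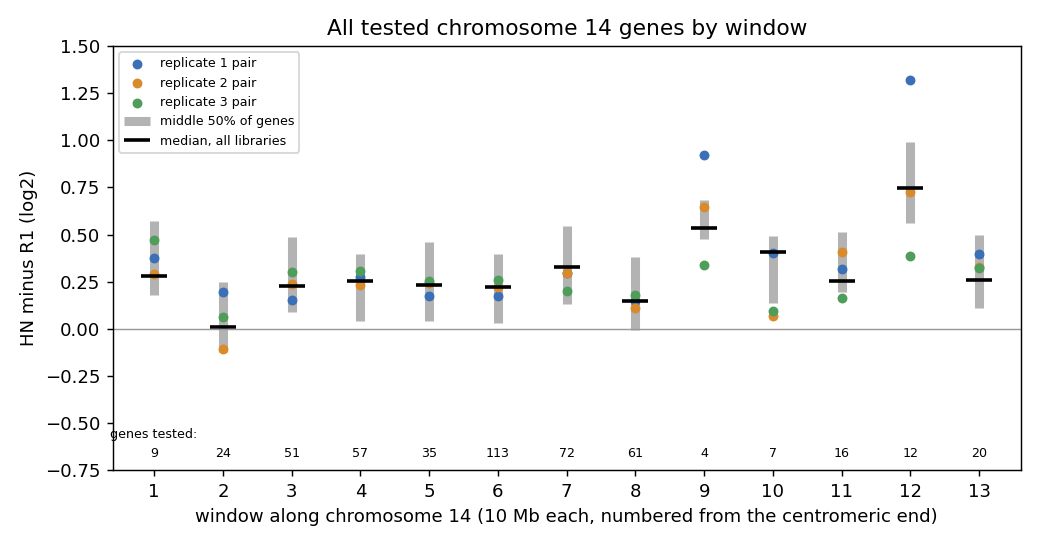
HN minus R1 difference (log2, y axis) over all tested chromosome 14 genes in windows of 10 Mb (x axis, counted from the centromeric end). Black bars are medians, grey bars the middle 50% of genes and coloured points the medians of the same-date pairs; the numbers of genes are printed at the bottom. Window 2 lies at 0.01 and window 12 at 0.75, on 12 genes, while the medians of the other windows with at least 20 genes lie between 0.15 and 0.33.

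Tgds (chr14:118111911-118132755, minus strand), which encodes TDP-glucose 4,6-dehydratase, had the largest difference. Its normalized counts were 12.8, 13.3 and 20.2 in R1 and 38.9, 53.9 and 53.1 in HN. All HN libraries were above all R1 libraries, and the means (15.4 ± 4.15 and 48.6 ± 8.40, SD, n = 3) differed by a ratio of 3.15. The log2 difference was 1.61 (SE 0.33, and 0.26 with the replicate block), and 1.54, 1.94 and 1.35 in the pairs. Of its exon bases, 15.1% overlap the non-coding gene Gm26773, from which the unstranded reads cannot be separated.

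Gpr180 (chr14:118137158-118163261, plus strand), annotated as an orphan G protein-coupled receptor, lies head to head with Tgds, 4403 bases away. Its normalized counts were 63.9, 46.6 and 45.8 in R1 and 80.3, 92.1 and 107 in HN, again without overlap. The difference was 0.83 (SE 0.24), with 0.33, 0.97 and 1.21 in the pairs. Dnajc3 (chr14:118937976-118981697, plus strand) encodes a co-chaperone of the endoplasmic reticulum that restrains the stress kinase PERK. It had 110, 107 and 117 in R1 and 234, 191 and 177 in HN, and each HN library was above each R1 library. Its difference was 0.83 (SE 0.20), and HN was higher in all 3 pairs by 1.08, 0.83 and 0.59.

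Dzip1 (chr14:118875520-118925460, minus strand), which acts in cilium assembly, lies next to Dnajc3. Counts of 71.3, 44.4 and 67.4 in R1 and of 106, 88.6 and 74.7 in HN did not overlap, with a difference of 0.56 (SE 0.26). An antisense gene (Gm49179) overlaps 28.4% of its exon bases. Tm9sf2 (chr14:122107038-122159604, plus strand), a membrane protein of the Golgi and endosomes and the last member, had 336, 377 and 241 in R1 and 411, 514 and 431 in HN, which did not overlap either. Its difference was 0.52 (SE 0.21), larger in pair 3 (0.83) than in pair 1 (0.29).

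Other distal members were closer to the chromosome's median. Ipo5, an importin, was at 0.24, Rap2a, a small GTPase of the Ras family, at 0.27, Ubac2, a protein of the endoplasmic reticulum membrane, at 0.24, and Stk24, a kinase of the Ste20 group, at 0.12. Mbnl2, a splicing regulator, was at 0.53.

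The sequences around the transcription starts of the 3 highest distal members are shown because these genes lie in window 12, where the difference was largest. Ipo5 (0.24) lies outside that window. It is shown beside them as the lowest of the 9 distal members for which a promoter was available. The sequences are RefSeq promoters of build GRCm38.p6, from 250 bases before to 50 bases after the start, given 5' to 3' on the strand of the gene. Capitals mark the GC box (GGGCGG or its reverse complement CCGCCC) and the CCAAT box (CCAAT or its reverse complement ATTGG), which overlap at one place in Dnajc3. The positions are chr14:118132716-118133015 on the minus strand for Tgds, and chr14:118136877-118137176 for Gpr180, chr14:118937682-118937981 for Dnajc3 and chr14:120910944-120911243 for Ipo5, all on the plus strand.
Tgds: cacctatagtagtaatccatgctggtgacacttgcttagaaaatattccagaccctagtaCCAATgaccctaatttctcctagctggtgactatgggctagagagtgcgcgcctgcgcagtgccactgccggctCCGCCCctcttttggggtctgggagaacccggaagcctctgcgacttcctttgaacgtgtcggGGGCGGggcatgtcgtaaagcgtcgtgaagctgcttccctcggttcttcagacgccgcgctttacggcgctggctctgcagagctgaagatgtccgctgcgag
Gpr180: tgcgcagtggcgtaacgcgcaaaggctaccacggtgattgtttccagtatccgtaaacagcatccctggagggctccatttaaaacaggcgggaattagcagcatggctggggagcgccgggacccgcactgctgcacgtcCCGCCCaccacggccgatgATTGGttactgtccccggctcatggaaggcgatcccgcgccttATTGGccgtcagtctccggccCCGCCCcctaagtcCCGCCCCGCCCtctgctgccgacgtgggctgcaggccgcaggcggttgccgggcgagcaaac
Dnajc3: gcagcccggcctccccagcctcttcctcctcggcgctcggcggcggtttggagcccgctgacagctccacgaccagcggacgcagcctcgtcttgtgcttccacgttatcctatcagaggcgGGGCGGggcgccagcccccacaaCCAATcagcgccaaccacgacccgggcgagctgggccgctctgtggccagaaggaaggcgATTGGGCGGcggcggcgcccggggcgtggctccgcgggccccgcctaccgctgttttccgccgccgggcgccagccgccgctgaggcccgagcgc
Ipo5: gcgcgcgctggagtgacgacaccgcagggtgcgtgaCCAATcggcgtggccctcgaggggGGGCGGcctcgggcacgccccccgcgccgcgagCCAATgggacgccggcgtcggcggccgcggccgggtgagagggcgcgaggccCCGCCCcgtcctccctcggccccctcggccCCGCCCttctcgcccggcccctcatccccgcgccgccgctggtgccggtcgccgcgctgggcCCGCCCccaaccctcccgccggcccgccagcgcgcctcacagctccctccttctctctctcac
Tgds held 2 GC boxes and 1 CCAAT box, Dnajc3 held 2 of each, and Gpr180 and Ipo5 both held 4 GC boxes and 2 CCAAT boxes. Of all promoters of the same length in the table, 35.7% held a GC box and 37.4% a CCAAT box. Among the 40 members matched to the table, 30 held a GC box and 22 a CCAAT box in any of their promoters. A gene can have more than 1 promoter (Ipo5 has 2), so these counts of genes cannot be set against the shares of single promoters. The promoters of the highest distal members and of Ipo5 held the same kinds of box, and a match of letters does not show binding.

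**Figure D5:**
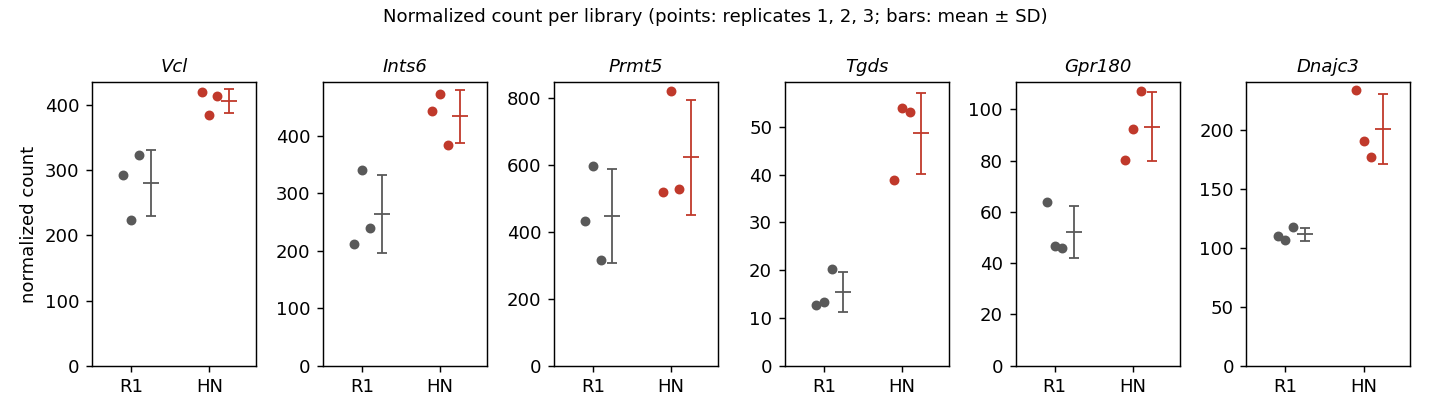
Normalized counts (y axes, each from 0) of 6 members in the R1 (grey) and HN (red) libraries; points are replicates 1, 2 and 3 from left to right, bars mean ± SD (n = 3). The lines do not overlap for Vcl, Ints6, Tgds, Gpr180 and Dnajc3, while for Prmt5 the replicate 2 library of R1 lies above 2 of the HN libraries.

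In the proximal segment, Vcl (chr14:20929398-21033676, plus strand), which encodes vinculin, the protein that ties adhesion sites to actin, had 293, 224 and 323 in R1 and 420, 386 and 415 in HN. The libraries did not overlap, and the difference was 0.55 (SE 0.20). Exons of Ap3m1 overlap 25.5% of its exon bases. Polr3a (chr14:24448696-24487058, minus strand), the largest subunit of RNA polymerase III, had 253, 348 and 163 in R1 and 264, 428 and 225 in HN. Its spread within each line was wider than its difference of 0.27 (SE 0.30), although HN was higher in each same-date pair (0.06, 0.30 and 0.46). Dlg5 (chr14:24133953-24245920, minus strand), a scaffold of cell polarity, had 86.2, 103 and 71.4 in R1 and 108, 106 and 69.3 in HN, with a difference of 0.11 (SE 0.25). Vdac2, a channel of the outer mitochondrial membrane, lay between them at 0.22.

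Grouped by what the proteins do, the 9 role groups had median differences between 0.18 and 0.41 and all of these were above 0. Nuclear transport receptors had the narrowest interquartile range between genes (0.11). All 5 (Ipo4, Ipo5, Kpna3, Xpo4 and Xpo7) were higher in all 3 pairs, with a median of 0.31 and differences from 0.16 to 0.40. The group was not even between pairs, with medians of 0.12, 0.24 and 0.45, and the R1 and HN libraries of all 5 overlapped. Ipo4 (chr14:55625400-55635957), an importin for ribosomal proteins and histones, had 162, 295 and 144 in R1 and 183, 399 and 218 in HN. Its libraries overlapped because both replicate 2 libraries were high, and its difference was 0.40 (SE 0.33, and 0.12 with the block). More than 10% of its exon bases are shared with an overlapping gene, Gm49378 (55.3%). Kpna3 (chr14:61365211-61439874), an importin alpha, had 414, 484 and 505 in R1 and 437, 553 and 591 in HN, a difference of 0.16 (SE 0.19).

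Chromatin genes had a median of 0.33 over 5 members, of which 4 were higher in all pairs. Prmt5 (chr14:54507187-54517525), the arginine methyltransferase that makes symmetric dimethylarginine on histones and splicing proteins, had 431, 596 and 314 in R1 and 517, 820 and 527 in HN. Replicate 2 was highest in both lines, and HN was higher in every pair (0.26, 0.46 and 0.75), with a mean difference of 0.49 (SE 0.26). Chd8, a chromatin remodeller, was at 0.44, Zmym2, a zinc finger protein of corepressor complexes, at 0.33, and Supt16, a subunit of the histone chaperone FACT, at 0.24. Setdb2 (chr14:59402009-59440884), a SET domain protein of the histone methyltransferase family, had 96.9, 112 and 113 in R1 and 110, 118 and 107 in HN, a difference of 0.06 (SE 0.20).

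Transcription machinery had a median of 0.20 over 6 members. Ints6 (chr14:62676330-62761169), a subunit of the Integrator complex that ends transcription at small nuclear RNA and other genes, had 212, 341 and 240 in R1 and 444, 473 and 384 in HN. These did not overlap, and the difference of 0.74 (SE 0.22) was the highest of the middle segment. Ints9, the partner of the Integrator endonuclease, was at 0.32, also without overlap. Elp3, the catalytic subunit of Elongator, was at 0.13. Gtf2f2 (chr14:75896937-76010865), a subunit of the general factor TFIIF and the last gene of the middle segment, had 185, 223 and 204 in R1 and 202, 240 and 229 in HN, a difference of 0.13 (SE 0.19) found in all 3 pairs. Med4 (chr14:73510025-73518849), a Mediator subunit, had 78.8, 89.5 and 105 in R1 and 81.5, 114 and 95.3 in HN, with the lowest difference of the group, 0.09 (SE 0.23).

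RNA-binding genes numbered 3. Mbnl2 (chr14:120275669-120431697) had 226, 163 and 195 in R1 and 352, 254 and 244 in HN, without overlap. The lowest was Hnrnpc (chr14:52073377-52104028), which binds nascent transcripts, with 472, 540 and 400 in R1 and 459, 672 and 509 in HN. Its difference was 0.21 (SE 0.21), and Acin1, a protein of splicing-dependent complexes, was also at 0.21.

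Genome maintenance genes had the lowest median, 0.18 over 6 members, and 2 of them were higher in all pairs. Rec8 (chr14:55618037-55625395), the kleisin of meiotic cohesin, had 56.4, 55.5 and 41.8 in R1 and 97.3, 49.6 and 94.2 in HN. HN replicate 2 lay within the range of R1, so that pair 2 went the other way (-0.16), while the mean difference was 0.59 (SE 0.30). Parp2 (chr14:50807841-50821301), a polymerase of ADP-ribose at DNA breaks, had 327, 289 and 193 in R1 and 249, 293 and 219 in HN. It was lower in pair 1 (-0.39) and higher in pair 3 (0.18), with a mean of -0.06 (SE 0.23). Apex1, the endonuclease of base excision repair, was at 0.29, but 61.7% of its exon bases overlap Pip4p1. Tep1, a telomerase-associated protein, was at 0.25, Tinf2, a shelterin subunit, at 0.12, and Wdhd1, a replication factor, at 0.07.

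Genes of cell cycle and growth control had a median of 0.26 over 6 members. Lats2 (chr14:57689662-57758388), a Hippo pathway kinase, had 10.7, 34.0 and 48.5 in R1 and 24.3, 61.0 and 34.7 in HN. Its difference of 0.49 (SE 0.51) was smaller than its error, and pair 3 was lower in HN (-0.47). Exons of Gm49361 overlap 42.4% of its exon bases. Rb1 (chr14:73183673-73325822), the retinoblastoma protein that holds E2F factors in check, had 86.2, 31.1 and 51.2 in R1 and 56.0, 49.6 and 57.4 in HN. The R1 libraries spanned the HN libraries, with a difference of 0.07 (SE 0.34). Ajuba, a LIM domain protein that binds Lats kinases, was at 0.43, Haus4, an augmin subunit, at 0.29, and Dlgap5, a spindle protein, at 0.23.

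Ubiquitin-like and interferon genes had a median of 0.21 over 4 members. Rnf31 (chr14:55591708-55603693), the catalytic subunit of the linear ubiquitin ligase, had 58.6, 59.2 and 68.7 in R1 and 86.4, 103 and 80.1 in HN. These did not overlap, and the difference was 0.52 (SE 0.23). Nedd8 (chr14:55662263-55672124), the ubiquitin-like modifier of cullins, had 349, 371 and 319 in R1 and 348, 422 and 343 in HN, a difference of 0.09 (SE 0.18). Irf9, the DNA-binding part of the interferon-activated factor ISGF3, was at 0.17.

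The 8 genes of adhesion, cytoskeleton and membrane traffic had a median of 0.30, with Vcl highest and Dlg5 lowest. Lgals3, a galactose-binding lectin, was at 0.54, Bin3, a membrane-curving BAR domain protein, at 0.33, Ap1g2, an adaptin, at 0.25, and Ktn1, a kinesin-binding protein, at 0.20. The mixed group of metabolism and other roles had a median of 0.41 over 9 members and held both extremes, Tgds and Gch1. All 4 of the highest distal members (Tgds, Gpr180, Dzip1 and Dnajc3) fall in this group, so role and position cannot be told apart in its median. Gch1 (chr14:47153895-47189413), the first enzyme of tetrahydrobiopterin synthesis, was the lowest in level and in difference. It had 23.4, 8.14 and 17.5 in R1 and 9.73, 7.09 and 19.5 in HN, and its difference of -0.41 (SE 0.54) came mainly from pair 1 (-1.19). The remaining members of this group were Tpt1, an abundant protein of growth control, at 0.41, Itm2b, a membrane protein, at 0.38, and Esd, an esterase, at 0.27.

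Levels per kilobase of exon differed widely between members. The mean R1 level ranged from 2.62 normalized counts per kb for Gch1 to 574 for Apex1, with a median of 33.9. The 3 members with the highest differences, Tgds, Gpr180 and Dnajc3, had mean R1 levels of 6.33, 27.8 and 21.6 per kb, below that median. Their mean HN levels were 20.0, 49.7 and 39.0 per kb. The R1 level is part of the difference by which these 3 were picked, so a low R1 level is no separate trait of them.

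Outside the set, the chromosome held larger differences in single genes. The 3 highest of the 429 were Uggt2 (2.30, SE 0.43), Zic2 (1.62, SE 0.47) and Timm8a2 (1.51, SE 0.96), and all 3 lie beyond 118 Mb. Uggt2, a glucosyltransferase that checks glycoprotein folding, lies 3342 bases beyond the end of Dnajc3 on the opposite strand and had 8.52, 14.8 and 36.4 in R1 and 99.8, 94.3 and 69.3 in HN. Zic2, a zinc finger factor of neural development, had 11.7, 13.3 and 41.8 in R1 and 65.7, 38.3 and 85.6 in HN, which overlapped. Timm8a2, a mitochondrial import factor, was near the limit of counting, with 0, 3.70 and 9.43 in R1 and 8.52, 6.38 and 15.2 in HN. Gpc6, a cell surface glypican and the tested neighbour of Tgds on the centromeric side, had 2.13, 8.14 and 35.0 in R1 and 21.9, 12.05 and 24.9 in HN, which overlapped. Its difference was 0.97 (SE 0.75) and went from 2.87 in pair 1 to -0.48 in pair 3.

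The 3 lowest were Gm5801 (-1.92, SE 0.51), Otx2 (-1.52, SE 0.54) and Nrl (-1.08, SE 0.87), and 59.5% of the 50-base stretches of Gm5801 also occur in another gene. Gm5801 had 18.1, 26.6 and 21.6 in R1 and 3.65, 7.80 and 4.33 in HN, without overlap. Otx2 (chr14:48657677-48673819), a homeobox factor of the early embryo and forebrain, had 27.7, 15.5 and 37.7 in R1 and 12.2, 3.54 and 11.9 in HN, without overlap. Nrl, a photoreceptor factor, had 5.32, 7.40 and 13.5 in R1 and 1.22, 2.13 and 10.8 in HN.

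The collection date is balanced between the lines and played no part in the choice of members, so it was tested. By limma's F test with line as a term, 26 of 52 members (50%) differed between the 3 dates at a Benjamini-Hochberg adjusted p under 0.05, beside 46% of all tested genes. Of these 26, 22 were highest in the replicate 2 libraries and 21 lowest in the replicate 3 libraries, with a median span of 0.65 on the log2 scale between the highest and lowest date. Of all 6569 genes that passed, 43.7% were highest in replicate 2 and 49.7% lowest in replicate 3, and of the 5174 in the members' range of expression 53.8% and 60.7% were, so replicate 2 was most often highest and replicate 3 most often lowest beyond the members too. The lowest adjusted p-values by this limma test were those of Ajuba (4.4e-08, span 1.28), Lgals3 (3.3e-07, span 1.58), Ipo4 (2.3e-06, span 0.99), Polr3a (5.5e-06, span 1.01) and Tpt1 (8.2e-06, span 0.77). The 4 highest distal members did not pass it, with adjusted p-values by limma from 0.177 (Dzip1) to 0.873 (Gpr180). Without R1 replicate 2 the count was 12 members, and without HN replicate 2 it was 15. It rested on the trend of variance with expression that limma shares between genes, since without that trend 0 members passed (11 at an unadjusted p under 0.05), while edgeR's quasi-likelihood test counted the same number, 26.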

How the data were processed

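Per the labels and the study's methods, libraries were made with the TruSeq RNA kit v2, which does not mark strand, and sequenced from both ends on an Illumina HiSeq instrument. The authors used STAR for alignment to the mm10 (GRCm38) build, Picard against PCR duplicates, HTSeq for exonic read counts and DESeq2 size factors for scaling. The deposited signal is this normalized count per gene (tool versions and annotation are not given in the sources used here), and unused columns of per-sample values numbered 0. In each library 100% of values were whole multiples (within 0.01 reads) of the value of 1 read, so reads were recovered for depth and for the count-based alternatives. In 27 rows a date stands in place of a gene name, and these are not named.

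Positions came from GENCODE M21 (21751 genes by name) and RefSeq of the same build (203 by symbol, 1304 by synonym). No position was used for 144 genes, and 10 symbols lay on several chromosomes. The 14276 genes with a mean normalized count of at least 5 were compared on log2(value + 1) with limma 3.58.1 (variance trend, Benjamini-Hochberg adjustment) in R 4.3.3, which understates the change of low genes. Called genes had a log2 difference above 1 in size at an adjusted p-value under 0.05. edgeR 4.0.16 (quasi-likelihood test) and DESeq2 1.42.0 on recovered reads, other pseudocounts, filters and normalizations, and left-out libraries were alternatives. Medians were not tested, since the members and all gene lists and roles were chosen with earlier results of these data known.

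Replicate numbers pair the libraries because the labels give both lines the same dates. Deviations from the line means over genes correlated at r = 0.25, 0.69 and 0.77 for numbers 1, 2 and 3, and at -0.71 to 0.34 between unlike numbers. Replicates of a line differed by more than sampling noise (chi-square divided by its degrees of freedom, 4.78 to 10.0). With 3 libraries against 3, an exact two-sided permutation test of a single value cannot give a p below 0.1. Nothing shows that a line was derived more than once, so the p-values measure the spread between batches of 1 line.

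Values in every library are given for members called with or without the block, for the highest and lowest member of each role group, for the first and last member of each segment, for the 3 highest and 3 lowest other genes of the chromosome, for the tested neighbours of Tgds, and for Htt. Gpr180, Dzip1 and Dnajc3 beyond that rule were chosen after their values were seen. Of the members, 10 share more than 10% of their exon bases with an overlapping gene and 10 share more than 10% of their 50-base stretches with other transcripts. Those with overlapping exons are Apex1, Ipo4, Lats2, Tinf2, Dzip1, Vcl, Supt16, Tgds, Rb1 and Nedd8. The 41 members in neither class had a median difference of 0.27.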

Additional observations from a re-analysis of the deposited data

How the results depend on the processing

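Over 21 alternatives the median difference of the members stayed above 0, from 0.14 to 0.39, and lay 0.15 to 0.40 above that of all genes, which itself ranged from -0.03 to 0.02. Between 42 and 51 members were above 0, and 46 with a mean of at least 50, where fewer members were tested. The sign of 37 members was the same in every alternative. It changed in at least one for Acin1, Ap1g2, Dlg5, Elp3, Ktn1, Lats2, Med4, Nedd8, Parp2, Polr3a, Rb1, Setdb2, Stk24, Tinf2 and Wdhd1.

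Without a block, 17 genes were called higher and 18 lower in HN, of which 0 were members. The replicate block gave 130 higher and 148 lower by limma, 132 and 152 by edgeR and 72 and 55 by DESeq2, and DESeq2 without a block gave 47 and 33. Each of these 4 called 1 member, Tgds. The block changed no other called member. Median centring called 27 genes higher. Without the variance trend limma called 0 genes in either direction, with 356 higher and 411 lower at an unadjusted p under 0.05, and the cause was not tested. Leaving out 1 library or 1 date gave 0 to 30 genes higher, 0 to 26 lower and 0 to 1 members (1 without R1 replicate 3), on fewer samples. The counts of 0 came without replicate 1 of both lines, where limma had 143 higher and 99 lower at an unadjusted p under 0.05. The median of all tested chromosome 14 genes was 0.24 by DESeq2, 0.21 with a pseudocount of 10, 0.21 without a filter, 0.28 with a mean of at least 50, 0.27 after median centring, 0.26 after quantile normalization, and 0.22 to 0.27 with libraries left out. With libraries left out the median of the members ran from 0.14 to 0.39, of the proximal from 0.046 to 0.39, of the middle from 0.13 to 0.37 and of the distal segment from 0.38 to 0.61.

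For the collection dates, 6569 genes and 26 members became 4090 genes with a mean of at least 50 (of 7659 tested), 4203 genes after quantile normalization, 1860 genes and 6 members without line as a term, and 0 and 0 without the variance trend (5326 and 11 at an unadjusted p under 0.05). Leaving out 1 library gave 3292 to 7545 genes and 12 to 28 members. Reads were not tagged with molecular identifiers, so counts of reads are not counts of molecules.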

Other observations

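The difference on chromosome 14 was found at all levels of expression. Over genes with mean normalized counts of 5 to 50, 50 to 200, 200 to 1000 and at least 1000, the median HN minus R1 difference (log2) was 0.18, 0.27, 0.30 and 0.23 on chromosome 14 and -0.08, 0.00, 0.01 and 0.04 on the other autosomes. The lowest class rested on 204 chromosome 14 genes and the highest on 10. The replicate 3 libraries had reads on the most genes (20675 in R1 and 20542 in HN, against 18133 to 19083 in the other libraries). In the lowest class the median on chromosome 14 was 0.44, 0.13 and 0.05 in pairs 1, 2 and 3, and on the other autosomes it was 0.11, -0.06 and -0.27.

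The 22 members on the plus strand had a median of 0.33 and the 30 on the minus strand 0.24. Differences were 0.32, 0.34 and 0.37 in the pairs for the plus strand and 0.16, 0.29 and 0.29 for the minus strand, and this contrast was not tested.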
